A study of Mus musculus with 24 samples.

Results

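The clustered protocadherin genes are 58 genes in a row on mouse chromosome 18, in an α cluster of 14 genes, a β cluster of 22 and a γ cluster of 22, out of 21520 genes given a window for methylation. They were chosen by symbol, as Pcdha, Pcdhb or Pcdhg followed by a number or by a, b or c and a number. The rule itself used no measured value. DNA methylation was measured by oxidative bisulfite sequencing, in which 5-hydroxymethylcytosine is not read as 5-methylcytosine, in mouse induced pluripotent stem (iPS) cells and in embryoid bodies, the aggregates in which such cells differentiate. The knock-in libraries came from 2 iPS clones, N5 and N9, each carrying miR-203, a microRNA, under doxycycline control (labelled miR-203 KI), and the wild-type (WT) libraries from iPS cells without it. Each line was sampled at t=0 before doxycycline, at day 10, when 5 days with doxycycline had been followed by 5 without it, at day 25, when 20 days without it had passed, and as embryoid bodies at day 32. The labels of the wild-type iPS libraries name the same doxycycline stages, while that of the wild-type embryoid bodies names no doxycycline and gives 10 days of differentiation where the series design gives 7. All iPS cells grew over feeder cells, and the sources used here do not give the age, sex or strain of the mice they came from.

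Protocadherins of the clusters are cell-adhesion proteins that are best known on neurons, where each cell shows its own combination of them and so can tell its own processes from those of other cells. In the α and γ clusters each gene contributes a variable first exon, with a promoter of its own, that is spliced to constant exons shared by the whole cluster, while a β gene is a single exon. In neurons the choice among these promoters depends on CTCF and cohesin, which loop promoters to enhancers, and on promoter methylation laid down by Dnmt3b, and Smchd1 helps to keep the clusters silent. The C-type genes (Pcdhac1, Pcdhac2, Pcdhgc3, Pcdhgc4 and Pcdhgc5) sit at the downstream ends of the α and γ clusters and are expressed more regularly than the other, stochastically chosen genes. Expression was not measured here, so the values below are of DNA methylation only.

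A member's level is the share of methylated calls among all calls at CpGs within 1000 bp of its first-exon end in build mm10. The first-exon windows span chromosome 18 from 36929285 to 37144678 in the α cluster, from 37263998 to 37519353 in the β cluster and from 37660775 to 37820546 in the γ cluster. All 58 windows had enough CpGs and calls for testing, and no window overlapped its neighbour. A window held a median of 54.5 CpGs in the α cluster (43 to 109), 29.5 in the β cluster (11 to 54) and 53.5 in the γ cluster (33 to 119). Exons of the clusters resemble one another, and the sources used here do not state how reads that match several of them were placed, so values of single genes may hold reads of their neighbours. The fewest calls behind a single value were 84, 46 and 168 in the 3 clusters. Knock-in values are given as the mean with the SD of the 2 clones. Wild-type values, taken as 1 library a stage, carry a 95% Wilson interval that covers counting error only. The interval treats each call as independent, although calls at neighbouring CpGs can share a read, so it can be too narrow. A level is a mean over many cells, so a lower level in every cell and a smaller share of cells or alleles with methylation cannot be told apart.

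The libraries held 102729088 calls (wild type, day 25) to 191102862 calls (N5, day 25), which is a mean coverage per CpG of 4.70 to 8.74. The N5 libraries of t=0, day 25 and embryoid bodies were run on another flow cell than the other 9, so that the changes of N9 and of the wild type lie within a single flow cell. In N5 the changes that involve day 10 cross flow cells, and the others do not. Over all CpGs the clones stood at 48.4% (N5) and 47.8% (N9) at day 25, against 64.7% and 64.9% at t=0, so that the members' changes are set against a loss across the genome. Relative to chromosome 5, the start of chromosome Y was covered at 0.0129 (N5) and 0.0110 (N9) at day 25 and at 0.0389 and 0.0407 at t=0, and at 0.00189 or less in the other 8 libraries. Chromosome X was covered at 0.520 (N5) and 0.523 (N9) at t=0 and at 0.511 in N9 embryoid bodies, and at 0.594 to 0.695 in the other 9 libraries. The libraries that stand apart include all those of the clones at t=0 and day 25, so no result on the clones at these stages can be given without them. Whether they hold other cells, and the part of this in the values below, was not tested. Coverage of chromosome 18 relative to chromosome 5 stayed between 0.947 and 0.997 in all 12 libraries. The window of Pou5f1, a pluripotency gene, stood at 20.5% to 35.04% in the knock-in libraries and at 7.69% to 18.9% in the wild type. Nanog, another pluripotency gene, went otherwise. Its window was lower in both clones than in the wild type at t=0, day 10 and day 25 (3.04% and 0.785% against 12.2% at day 25). In embryoid bodies it was higher in the clones (8.60% and 14.6% against 2.43%).

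The order of the clusters was the same in each library. The β windows were the most methylated and the γ windows the least, with β above α and α above γ in 12 of 12 libraries. At t=0 the pooled level in the clones was 18.6% ± 0.216 in the α cluster, 31.9% ± 1.39 in the β cluster and 13.0% ± 0.148 in the γ cluster (SD, n = 2). In the wild type at t=0 it was 16.7% (95% interval 15.6 to 17.8) in the α cluster, 31.3% (30.02 to 32.68) in the β cluster and 13.4% (12.8 to 14.0) in the γ cluster. The order of β and α depended on the window. Within 500 bp of the first-exon end, β was above α in 10 of 12 libraries, and with the C-type genes left out as well in 5 of 12, while α stayed above γ in 12 of 12 under both. A pooled level weights a gene by its calls, and the 109 CpGs of Pcdhac2, nearly unmethylated, pull the α level down; without the C-type genes the clones' α level at t=0 was 24.6% and the γ level 14.4%.

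The β genes had the fewest CpGs and the highest pooled level, while the α and γ genes had a like number of CpGs at different levels. Across the 58 members, the number of CpGs and the clones' level at t=0 had a Spearman rho of -0.665, which includes the difference between clusters. Within the clusters rho was -0.273 in α, -0.406 in β and -0.681 in γ, all given as a description because the members share libraries and sequence. All tested windows with 26 to 34 CpGs, the middle range of the β genes, had a median of 65.5% in the clones at t=0 (1831 windows), which is above the pooled β level of 31.9%. Windows with 50 to 60.75 CpGs, the middle range of the α genes, had a median of 11.9% (1390 windows), and those with 48.5 to 62.5 CpGs, the middle range of the γ genes, 11.4% (1785 windows). The median over members at t=0 was 31.6% (N5) and 34.3% (N9) in β, 18.1% and 18.8% in α, and 14.6% and 14.4% in γ. By these medians the β genes were less methylated, and the α and γ genes more, than the typical window of like CpG number. The β medians lay below the quartiles of their windows, 41.3% to 75.8%. Those of α and γ lay within theirs, 6.35% to 21.2% and 6.21% to 20.7%. The other windows lie at the CpG-denser end of their gene, as those of some β and γ genes do not. With the denser end for members too, the pooled γ level in the clones at t=0 was 8.38%, below 11.4%. The higher γ level is thus not shown with ends chosen alike. No test was made of these differences.

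**Figure D1:**
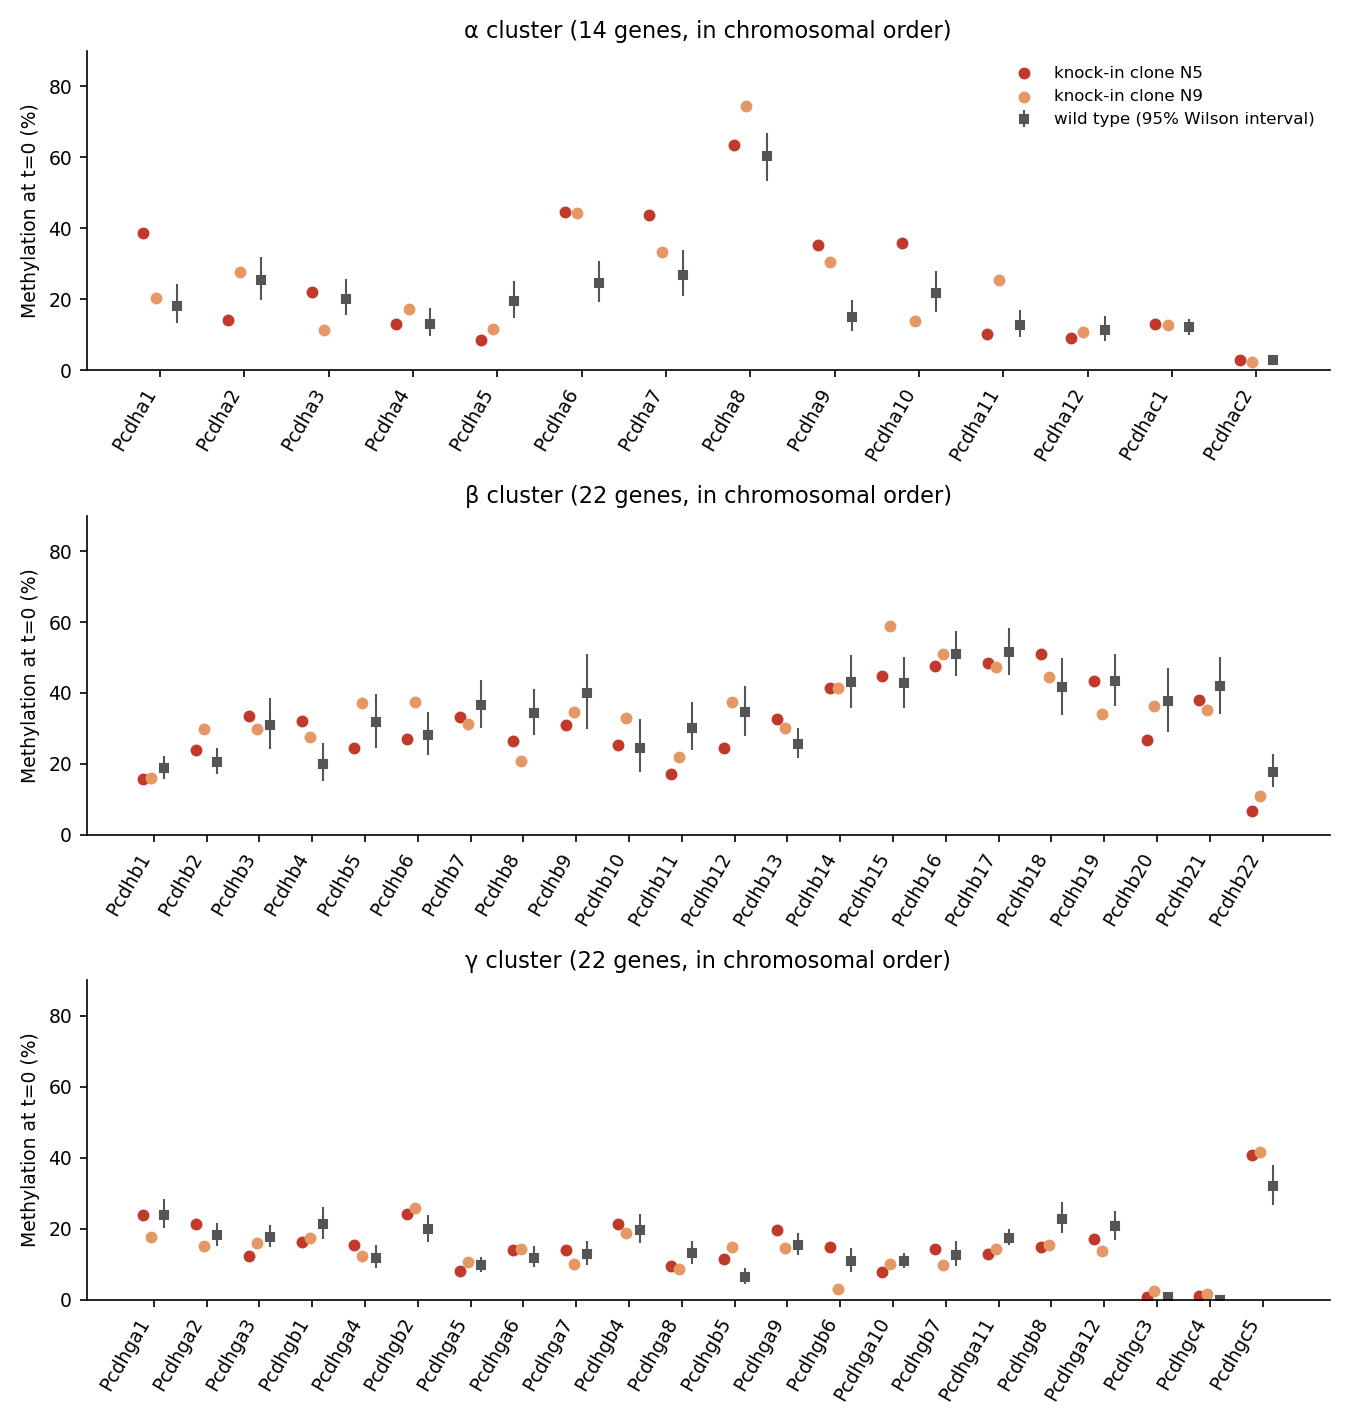
Methylation (%) of the first-exon window of each of the 58 genes at t=0, in chromosomal order, for knock-in clones N5 and N9 (circles) and wild type (squares, bars are 95% Wilson intervals of the calls). Pcdha8 stands highest at 63.6% and 74.3% in the clones, and Pcdhac2, Pcdhgc3 and Pcdhgc4 lie near 0.

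The members of the α cluster varied most. Pcdha8 had the highest level of any member, 63.6% (N5) and 74.3% (N9) at t=0 in the clones, against 60.2% (95% interval 53.2 to 66.8) in the wild type. Pcdha6 stood at 44.4% and 44.2% in the clones, against 24.4% (19.1 to 30.6) in the wild type. At the low end Pcdha12, next to the C-type genes of the cluster, had 9.00% and 10.7% in the clones and 11.1% (8.05 to 15.2) in the wild type. The clones themselves differed at some α genes, most at Pcdha10, with 35.7% in N5 and 13.7% in N9, and at Pcdha1, with 38.5% in N5 and 20.2% in N9.

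The β genes spanned a narrower range. Pcdhb15 was highest with 44.8% (N5) and 58.9% (N9) in the clones at t=0, against 42.8% (35.8 to 50.1) in the wild type. Pcdhb16 followed with 47.7% and 51.0% in the clones and 51.1% (44.7 to 57.4) in the wild type. The genes at the 2 ends of the cluster were lowest. Pcdhb1, the first gene of the cluster, had 15.8% and 16.0% in the clones, against 18.8% (15.7 to 22.3) in the wild type. Pcdhb22, the last, had 6.84% and 11.0% in the clones, against 17.7% (13.5 to 22.9) in the wild type.

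Leaving out the C-type genes, the γ genes lay between 8.94% (Pcdhgb6) and 25.0% (Pcdhgb2) as clone means at t=0, the narrowest range of the 3 clusters. Pcdhgb2 had 24.1% (N5) and 25.9% (N9), against 19.9% (16.4 to 23.9) in the wild type. The order of the members was much alike between lines, with a Spearman rho over the 58 members at t=0 of 0.854 between N5 and N9 and of 0.881 between the clone mean and the wild type. These correlations share the sequence and CpG number of each window and carry no test.

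The C-type genes did not form a group of like level. Pcdhac2 stood between 1.31% and 5.86% in all 12 libraries, Pcdhgc3 between 0.681% and 3.76%, and Pcdhgc4 between 0% and 7.35%. The 0% of Pcdhgc4 was the wild type at t=0, where the upper bound of the 95% Wilson interval was 0.646%. Pcdhac1 was intermediate, with 8.31% to 19.3% in the clones. Pcdhgc5, the last gene of the γ cluster and the one with the fewest CpGs there (33), had 40.9% and 41.7% in the clones at t=0, against 32.0% (26.6 to 38.0) in the wild type, and was the most methylated γ gene.

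The 3 clusters also differed in the shape of methylation around the first-exon end, here without the C-type genes. In the 250 bp just before it, the clones at t=0 had 26.0% and 20.6% in the α cluster, 10.2% and 11.0% in the β cluster and 5.56% and 5.61% in the γ cluster. These promoter-side CpGs put α highest and β between α and γ, unlike the windows of 1000 bp on either side. Further into the exon the β level climbed steeply, to 32.4% ± 1.00 at 250 to 500 bp and to 56.3% ± 4.17 at 1000 to 1250 bp, then declined to 17.4% ± 2.36 at 2000 to 2250 bp. The γ exons stood at 6.09% ± 0.0888 at 250 to 500 bp and 38.5% ± 0.462 at 1000 to 1250 bp, and the α exons at 16.7% ± 2.89 and 44.2% ± 2.09. Upstream, at 1000 to 1250 bp before the first-exon end, the clones at t=0 had 58.6% ± 2.72 in α, 60.2% ± 7.13 in β and 66.5% ± 0.287 in γ. The wild type at t=0 had 49.5% (39.5 to 59.4) in α, 58.6% (52.2 to 64.8) in β and 66.3% (60.2 to 71.8) in γ there. In the pooled profile the first-exon end was thus a dip between methylated flanks, with its floor lowest in the γ cluster and highest in the α cluster.

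**Figure D2:**
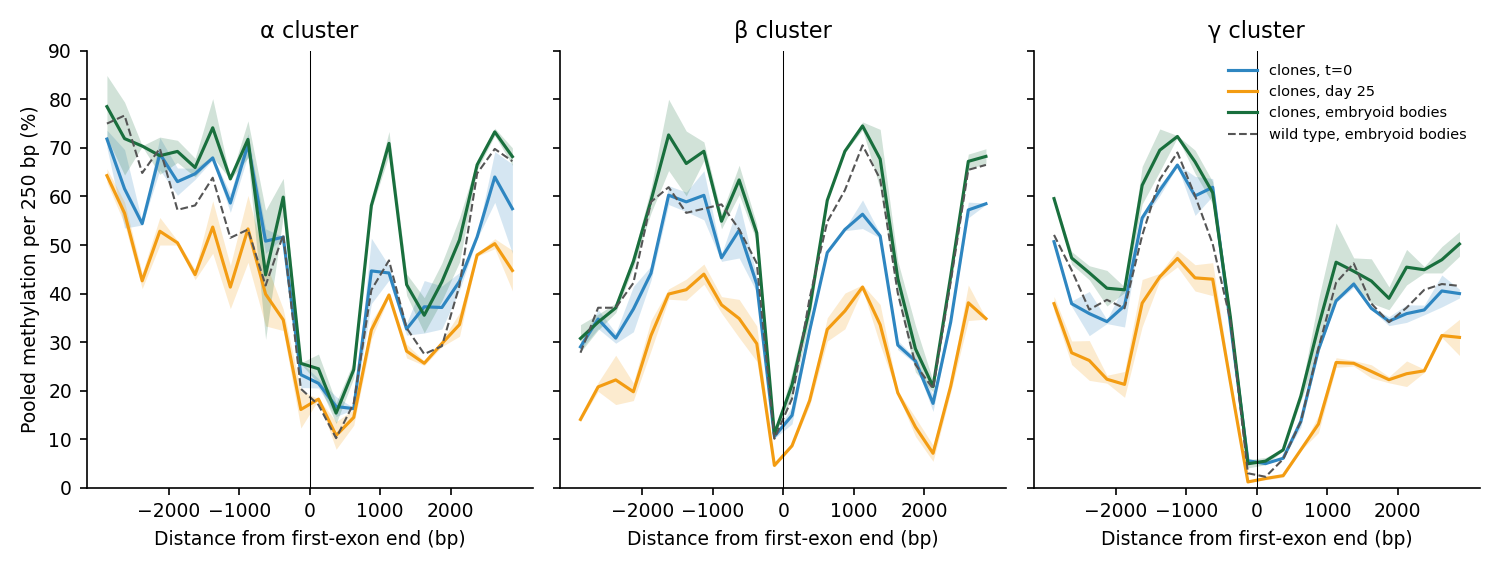
Pooled methylation (%) in steps of 250 bp by distance (bp) from the first-exon end, without the C-type genes, for the clones at t=0, day 25 and in embryoid bodies (line is the mean of N5 and N9, shading their range) and for wild-type embryoid bodies (dashed). Just before the first-exon end the day 25 line lies lowest in each cluster, at 16.1% in α, 4.62% in β and 1.22% in γ.

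The shared 3′ ends of the α and γ clusters were unlike each other. Around the end of the last constant exon the clones at t=0 had 78.3% ± 4.69 over the 16 CpGs of the α cluster but 4.25% ± 1.40 over the 52 CpGs of the γ cluster. Because this γ end is rich in CpGs, 8 γ genes have it as their CpG-denser end, and 14 have their own first-exon end. All 14 α genes and 16 of the 22 β genes have the denser end at the first exon. With the denser end in place of the first-exon end, the γ level of the clones at t=0 was 8.38%.

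The comparison of the clones at day 10 and t=0 asks what was left 5 days after the pulse of doxycycline that induces miR-203. Over the pooled windows the α level in the clones was 17.2% ± 0.832 at day 10 against 18.6% ± 0.216 at t=0, the β level 27.5% ± 0.317 against 31.9% ± 1.39, and the γ level 11.8% ± 0.512 against 13.0% ± 0.148. The wild type did not fall, with 18.6%, 33.4% and 13.5% in α, β and γ at day 10 against 16.7%, 31.3% and 13.4% at t=0. Its change was 1.95 points in α and 2.02 in β, and in γ only 0.110. Of the 58 members 0 passed the test by edgeR, where 0.187% of all windows did, and 4 members and 11.5% of all windows had an unadjusted p under 0.05. By limma the count was also 0.

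At day 25, the level was lower in each cluster in both clones, and not in the wild type. The α level in the clones was 14.2% ± 1.57 at day 25, a change of -4.38 ± 1.35 percentage points since t=0 (-3.43 in N5 and -5.34 in N9), where the wild type changed by 0.124 points. The β level was 20.6% ± 1.14, a change of -11.3 ± 2.53 points (-9.48 in N5 and -13.1 in N9), where the wild type changed by 0.976. The γ level was 6.92% ± 0.468, a change of -6.07 ± 0.616 points (-5.63 in N5 and -6.51 in N9), where the wild type changed by 0.486. β changed by the most points, but relative to t=0 the γ cluster kept the least, with 53.3% ± 4.21 of its level left at day 25, against 64.8% ± 6.41 in β and 76.4% ± 7.56 in α. All tested windows in the CpG range of the γ genes had medians of 11.4% at t=0 and 6.39% at day 25 in the clones. In the α range these medians were 11.9% and 6.75%, and in the β range 65.5% and 45.8%. The low share kept is thus not shown to be particular to the γ genes. With 2 clones no permutation test can pass 0.05, and these differences between clusters were not tested. N9 changed more than N5 in each cluster. The t=0 and day 25 libraries of each clone shared a flow cell, but N5 and N9 were on different flow cells. Clone and flow cell thus cannot be told apart here.

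**Figure D3:**
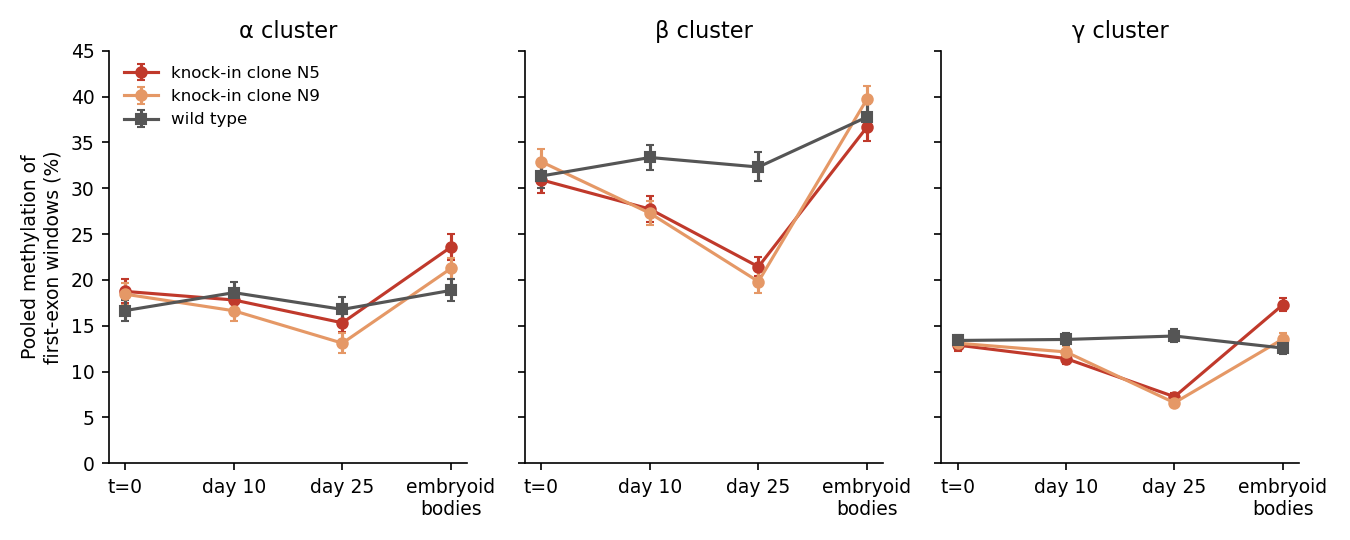
Pooled methylation (%) of the first-exon windows of each cluster in the 12 libraries, by stage, for knock-in clones N5 and N9 and wild type (bars are 95% Wilson intervals of the calls). The clones dip at day 25, to 14.2%, 20.6% and 6.92% on average in α, β and γ, while the wild type stays at 16.8%, 32.3% and 13.9%.

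Gene by gene, 26 of the 58 members fell at day 25 relative to t=0 in the clones and 0 rose (edgeR's quasi-likelihood test, adjusted p under 0.05 over 20317 windows). They were 2 of 14 α genes, 12 of 22 β genes and 12 of 22 γ genes. Of all windows 40.2% fell and 0.0148% rose, so the share over the 3 clusters together is close to the background. The median change of the members was -7.34 points, against -3.91 over all windows tested, and medians of the clusters were -6.35 in α, -11.6 in β and -6.91 in γ. All windows tested had a median level of 10.2% at t=0 in the clones, so windows of unlike level are set side by side. The members are thus not shown to lose more than windows of like CpG number, whose levels are given above. Both clones at day 25 lay below both at t=0 in 41 members (5 α, 19 β and 17 γ), where 75.6% of all windows did so. In the wild type 26 members were lower and 32 higher at day 25 than at t=0. The count of 26 depended on each clone library. Leaving out a library of t=0 gave 13 (N5) or 10 (N9), leaving out one of day 25 gave 15 (N5) or 8 (N9), and windows of 500 bp gave 17.

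Among the β genes Pcdhb15 and Pcdhb18 had the lowest p. Pcdhb15 had 28.4% (N5) and 32.2% (N9) at day 25, against 44.8% and 58.9% at t=0 (a change of -21.6 ± 7.28 points, edgeR adjusted p = 0.00822), and 44.5% at day 25 in the wild type. Pcdhb18 had 31.2% and 23.7% at day 25, against 51.0% and 44.5% at t=0 (-20.3 ± 0.708 points, edgeR adjusted p = 0.00952). In the wild type Pcdhb18 went the other way, with 62.7% (95% interval 51.9 to 72.3) at day 25 against 41.5% (33.8 to 49.8) at t=0. Pcdhb16 and Pcdhb12 also fell, by 14.6 ± 3.88 and 12.5 ± 6.98 points (edgeR adjusted p = 0.0323 and 0.0299). The changes of the 12 β genes that fell were -21.6 to -10.2 points. Of the β genes that did not pass, Pcdhb1 changed by -5.56 ± 0.341 points (edgeR adjusted p = 0.117), Pcdhb11 by -5.38 ± 3.41 (0.202) and Pcdhb22 by -3.86 ± 3.93 (0.126).

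Among the γ genes Pcdhga7 and Pcdhga4 had the lowest p. Pcdhga7 had 4.46% (N5) and 3.48% (N9) at day 25, against 14.1% and 10.0% at t=0 (-8.06 ± 2.17 points, edgeR adjusted p = 0.00272). Pcdhga4 had 6.04% and 2.73% at day 25, against 15.4% and 12.2% at t=0 (-9.42 ± 0.107 points, edgeR adjusted p = 0.0035). In both genes the clones did not overlap between the stages, and the wild type stood at 17.4% and 17.8% at day 25, against 12.9% and 11.8% at t=0. Pcdhga1 fell by 11.3 ± 5.05 points, Pcdhgb2 by 10.9 ± 0.447, Pcdhgb4 by 9.14 ± 1.25, Pcdhgb5 by 7.04 ± 1.10, and Pcdhgb8, annotated as a transcribed pseudogene, by 8.91 ± 3.29 (edgeR adjusted p from 0.00671 to 0.0358).

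In the α cluster only Pcdha4 and Pcdha12 passed. Pcdha4 had 5.76% (N5) and 5.36% (N9) at day 25, against 12.9% and 17.3% at t=0 (-9.56 ± 3.38 points, edgeR adjusted p = 0.00439), with 14.9% in the wild type at day 25. Pcdha12 had 5.37% and 1.90% at day 25, against 9.00% and 10.7% at t=0 (-6.22 ± 3.66 points, edgeR adjusted p = 0.0129). The most methylated α genes did not pass. Pcdha8 changed by -5.41 ± 10.1 points, Pcdha6 by -6.48 ± 10.3 and Pcdha7 by -4.41 ± 6.65 (edgeR adjusted p from 0.369 to 0.534), with SDs between clones larger than the change, and Pcdha9 by -11.5 ± 1.47 (0.0628). EdgeR called 0 of the 5 C-type genes, and 0 of them had an unadjusted p under 0.05, where 52.5% of all windows did. Pcdhgc5 changed by -10.6 ± 1.93 points (edgeR adjusted p = 0.119), Pcdhac1 by -3.60 ± 1.50 (0.22), and Pcdhac2, Pcdhgc3 and Pcdhgc4, at or below 2.50% at t=0, by less than 1 point.

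**Figure D4:**
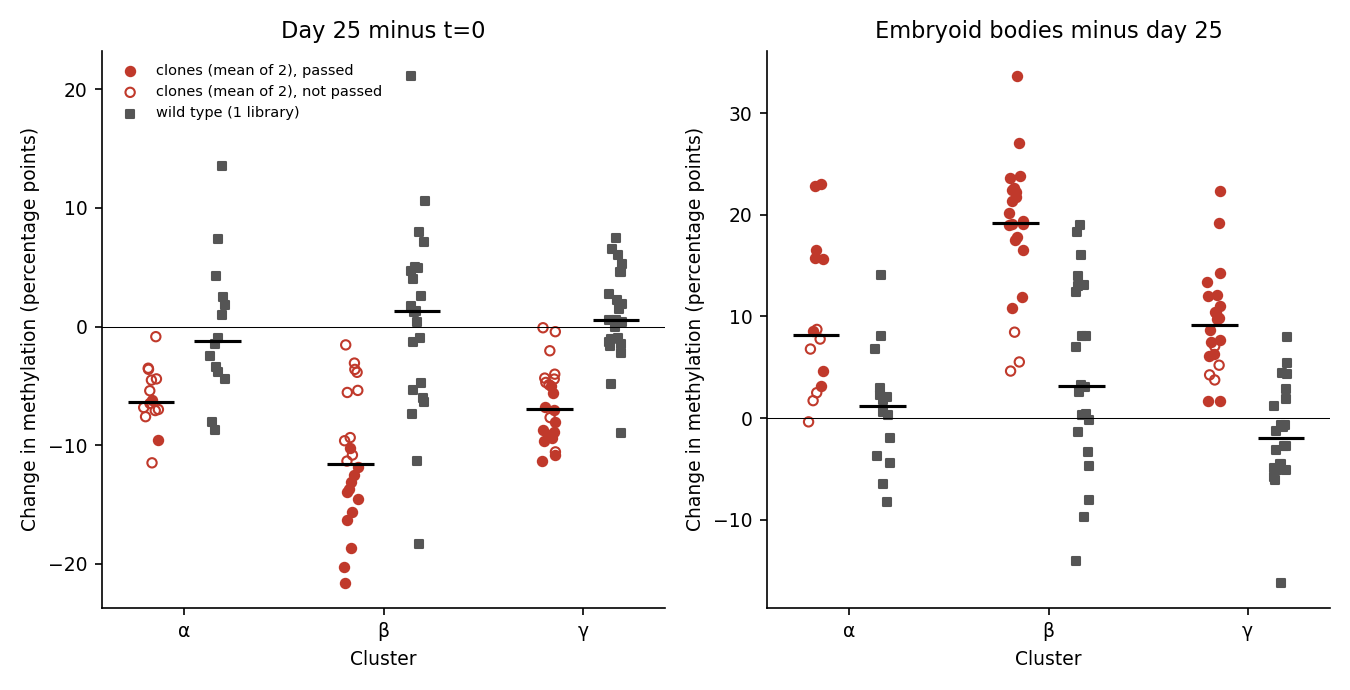
Change in methylation (percentage points) of each first-exon window between stages, by cluster, for the mean of the clones (circles, filled where the edgeR adjusted p was under 0.05) and for the wild type (squares); bars are medians over the genes. At day 25 the clone medians are -6.35, -11.6 and -6.91 points in α, β and γ, and in embryoid bodies relative to day 25 they are 8.15, 19.2 and 9.16.

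Set against the wild type at the same stage, the clones differed at no member past the threshold at t=0 or at day 10. At t=0, 0 of the 58 members differed by edgeR, where 0.536% of all windows did, while 6 members and 9.20% of all windows had an unadjusted p under 0.05. Pcdha6 and Pcdha9 were the α genes with the lowest p, at 19.9 and 17.9 points above the wild type (edgeR adjusted p = 0.265 and 0.21). Pcdhb22 and Pcdhb11 differed from it by -8.79 and -10.8 points (0.431 and 0.572), and Pcdhgb5 lay 6.90 points and Pcdhgc4 1.34 points above it (0.456 and 0.216). The count was 2 within 500 bp and 2 on CpGs with calls in all libraries. At day 10, 0 members differed by edgeR, as for 0.0% of all windows, while 6 members and 7.25% of all windows were under 0.05 unadjusted. By limma 0 members differed at t=0 and 0 at day 10.

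At day 25, 11 members were lower in the clones than in the wild type and 0 were higher, where 10.1% of all windows were lower and 0.0492% higher. They were Pcdha4 in the α cluster, 4 β genes (Pcdhb8, Pcdhb16, Pcdhb18 and Pcdhb19) and 6 γ genes (Pcdhga1, Pcdhgb1, Pcdhga4, Pcdhga7, Pcdhgb4 and Pcdhga10). Pcdhb18 differed most, with 27.5% ± 5.27 in the clones against 62.7% (51.9 to 72.3) in the wild type (edgeR adjusted p = 0.00478). Pcdhga7 had the lowest p, with 3.97% ± 0.696 in the clones against 17.4% (13.9 to 21.7) in the wild type (edgeR adjusted p = 0.00242). The wild type here is 1 library, assumed to vary as the clones do. The count was 8 with the clones as a block, 2 when flow cell was added to the block, 7 by limma and 7 without N5 or 4 without N9 at day 25.

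A test of the difference in change, clones minus wild type, called 1 member between t=0 and day 25, Pcdhb18, where 1.92% of all windows were called. The change of Pcdhb18 was -20.3 points in the clones and 21.1 points in the wild type, a difference of -41.4 points (edgeR adjusted p = 0.0419). It lost its call without any 1 of the 4 clone libraries (adjusted p from 0.0577 to 0.092), by limma (0.0806) and within 500 bp (0.151).

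Embryoid bodies of the clones were more methylated than the clones at day 25 in each cluster. The α level in embryoid bodies of the clones was 22.4% ± 1.65, which is 8.20 ± 0.0776 points above day 25 (8.26 in N5 and 8.15 in N9), where the wild type changed by 2.07 points. The β level was 38.2% ± 2.16, which is 17.6 ± 3.30 points above day 25 (15.2 in N5 and 19.9 in N9), where the wild type changed by 5.45. The γ level was 15.4% ± 2.65, which is 8.50 ± 2.18 points above day 25 (10.0 in N5 and 6.96 in N9), where the wild type changed by -1.31. The embryoid bodies of the wild type stood at 18.8% (17.7 to 20.1) in α, 37.8% (36.4 to 39.2) in β and 12.6% (12.0 to 13.2) in γ. The clones were thus above day 25 in the 3 clusters, and the wild type in α and β but not in γ. The wild-type change in α was smaller than the difference between the 2 columns summed for its day 25 library (3.84 points). The comparison shares the day 25 libraries of the clones with the comparison of day 25 and t=0, so the values of both turn on the same low stage.

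In embryoid bodies of the clones, 45 of the 58 members rose relative to day 25 and 0 fell, 8 α genes, 19 β genes and 18 γ genes, where 74.6% of all windows rose and 0.00492% fell. This share too is close to the background, and within 500 bp the count was 29. The median change was 11.5 points over the members and 7.22 over all windows. Windows in the CpG range of the β genes had a median level of 45.8% at day 25 and 76.6% in embryoid bodies of the clones. In the α range these medians were 6.75% and 16.0%, and in the γ range 6.39% and 15.3%. The members are thus not shown to gain more than windows of like CpG number. Both clones as embryoid bodies lay above both at day 25 in 51 members (11 α, 21 β and 19 γ), where 89.0% of all windows did so.

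Pcdhb19 and Pcdhb12 led the β genes. Pcdhb19 had 61.2% (N5) and 61.9% (N9) in embryoid bodies, against 34.5% and 21.3% at day 25 (33.6 ± 9.83 points, edgeR adjusted p = 3.02e-05). Pcdhb12 had 42.8% and 48.2%, against 16.9% and 20.0% at day 25 (27.0 ± 1.70 points, edgeR adjusted p = 5.64e-05). In the wild type Pcdhb19 had 41.7% (33.9 to 50.0) in embryoid bodies against 51.4% (42.0 to 60.8) at day 25, the opposite direction to the clones. The β genes that stood out at the edges of the cluster also rose, Pcdhb22 by 11.9 ± 4.11 points and Pcdhb1 by 10.9 ± 6.46 (edgeR adjusted p = 0.000351 and 0.0053), as did Pcdhb11, Pcdhb15, Pcdhb16, Pcdhb18 and Pcdhb20, by 16.5 to 23.8 points.

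In the α cluster Pcdha8 had 86.8% (N5) and 86.0% (N9) in embryoid bodies, against 65.3% and 61.7% at day 25 (22.8 ± 1.94 points, edgeR adjusted p = 0.000107). Pcdha7 had 58.8% and 55.4%, against 34.6% and 33.6% at day 25 (23.0 ± 1.74 points, edgeR adjusted p = 0.00124), and Pcdha6 rose by 15.8 ± 3.18 points (0.0277). Pcdha4 rose by 4.62 ± 0.0529 points (edgeR adjusted p = 0.0421). The values of Pcdha12 and Pcdha9, which did not pass, changed by 2.50 ± 2.59 and 8.72 ± 9.19 points (edgeR adjusted p = 0.14 and 0.112). Embryoid bodies of the wild type had 72.6% at Pcdha8 and 29.6% at Pcdha7, against 64.5% and 29.3% at day 25.

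Among the γ genes Pcdhgb8 and Pcdhga4 had the lowest p. Pcdhgb8 had 30.5% (N5) and 20.3% (N9) in embryoid bodies, against 8.36% and 4.11% at day 25 (19.2 ± 4.23 points, edgeR adjusted p = 2.15e-05), and Pcdhga4 had 16.0% and 17.0%, against 6.04% and 2.73% (12.1 ± 3.03 points, edgeR adjusted p = 0.000113). Pcdhga1, Pcdhga7, Pcdhgb2 and Pcdhgb5 rose as well, by 7.69 to 14.3 points. The value of Pcdhgb4 changed by 7.07 ± 4.03 points without passing (edgeR adjusted p = 0.0642). All 5 C-type genes rose. Pcdhgc5 had 59.7% and 46.5% in embryoid bodies against 31.7% and 29.7% at day 25 (22.4 ± 7.95 points, edgeR adjusted p = 0.00154), and Pcdhac1 rose by 8.53 ± 3.45 points (0.00926). Pcdhac2, Pcdhgc3 and Pcdhgc4 rose by 3.18, 1.66 and 1.72 points (edgeR adjusted p from 0.00323 to 0.0373), and stood at 5.77% or less in embryoid bodies of both clones.

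The test of the difference in this change, clones minus wild type, called 4 members, all with the larger gain in the clones, where 6.02% of all windows were called in that direction. These were Pcdhb19 (a difference of 43.3 points, edgeR adjusted p = 0.0165), Pcdhb18 (34.1 points, 0.0488), Pcdhgb4 (23.2 points, 0.0355) and Pcdhga1 (19.2 points, 0.0485). In the wild type each of the 4 was lower in embryoid bodies than at day 25, with changes of -16.2 to -5.80 points. Its embryoid bodies are labelled with 10 days and no doxycycline, so genotype cannot be told apart from these conditions. By limma only Pcdhb19 was called (adjusted p = 0.0387), without N9 at day 25 the count was 0 and without N5 in embryoid bodies it was 1, and it was 10 when flow cell was added to the block.

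Set against the clones at t=0, the pooled level of the clones as embryoid bodies differed by 3.82 ± 1.43 points in α, 6.29 ± 0.765 in β and 2.43 ± 2.80 in γ, and the wild type by 2.19, 6.43 and -0.827 points. Of the 58 members 4 were higher in embryoid bodies than at t=0, Pcdha7, Pcdha8, Pcdhb19 and Pcdhb20, and 0 were lower, where 8.91% of all windows were higher and 0.0394% lower. Both clones as embryoid bodies lay above both at t=0 in 29 members (5 α, 14 β and 10 γ) and below both in 2, where 52.1% and 4.61% of all windows did so. Pcdha7 differed by 18.6 ± 4.90 points (edgeR adjusted p = 0.0441), Pcdha8 by 17.4 ± 8.15 (0.0159), Pcdhb19 by 22.8 ± 7.10 (0.0257) and Pcdhb20 by 20.2 ± 7.16 (0.0427). The count was 2 by limma and 0 or 1 without any 1 of the 4 clone libraries of N5 or N9, and within 500 bp the direction of Pcdhb19 turned (a log2 odds ratio of -0.29, edgeR adjusted p = 0.805).

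The clones and the wild type as embryoid bodies did not differ at any member by edgeR (0 of 58, where 0.0689% of all windows were called), and by limma the count was also 0. An unadjusted p under 0.05 was found for 9 members, 5 of them the α genes Pcdha1, Pcdha6, Pcdha7, Pcdha8 and Pcdha9, and for 8.75% of all windows. Pcdha7 had the lowest p, with 58.8% (N5) and 55.4% (N9) in the clones against 29.6% (23.6 to 36.5) in the wild type (edgeR adjusted p = 0.134). Beyond the windows, between 1000 and 2400 bp past the first-exon end, the α exons in embryoid bodies stood at 49.8% ± 3.98 in the clones against 38.8% (37.2 to 40.4) in the wild type. At t=0 the same stretch had 39.4% ± 1.58 in the clones and 38.4% (36.9 to 39.9) in the wild type. The β stretch in embryoid bodies had 38.7% ± 2.75 in the clones and 38.8% (37.6 to 40.0) in the wild type, and the γ stretch 42.9% ± 5.42 and 38.7% (37.6 to 39.8). These stretches were not tested.

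Other genes of the pathway and of the region give the setting, beside the 40.2% of all windows that fell at day 25 and the 74.6% that rose in embryoid bodies (medians -3.91 and 7.22 points). Of 12 unclustered protocadherins, which are adhesion genes outside the clusters, 2 fell at day 25 relative to t=0 in the clones (Pcdh12 and Pcdh10) and 9 rose in embryoid bodies relative to day 25, with median changes of -0.655 and 6.17 points. Of 12 genes beside or between the clusters, 8 fell and 10 rose (medians -3.31 and 4.63 points), among them Slc25a2 and Taf7, which lie between the β and γ clusters. Of 21 genes for factors that act on the clusters or on DNA methylation, 10 fell and 16 rose (medians -1.54 and 3.86). The windows of Smchd1 and Ctcf stayed at or under 1.30% in all 12 libraries, and that of Dnmt3b at 1.98% to 7.74%. Of 15 fibroblast genes, listed because feeder cells are fibroblasts as a rule, 4 fell and 13 rose (medians -2.07 and 16.0), and the part of feeder cells in the members' levels was not tested.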

How the data were processed

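Per the labels' protocols, a TrueMethyl kit was used to oxidise the DNA and convert it with bisulfite. BWA, Picard 1.91 and build mm10 are named in the submitters' processing notes. The sources used here name no methylation caller. Per the file headers, the authors deposited whole-number counts of methylated and of total calls at 21875444 CpGs, without normalization. The deposited wild-type coverage columns are counts of another layout, with 2 columns a stage. Their headers, like those of the methylated calls, name them rep1 and rep2. They were taken as the 2 lanes of 1 library, because the titles share index and flow cell, and summed. Whether they are separate libraries is not settled by the sources used here. The pooled levels of the 2 columns differed most in the α cluster at day 25, by 3.84 points.

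The RefSeq annotation used gives no strand. The first-exon end was taken as the end that α or γ genes do not share, and as the lower coordinate for β genes, while other genes had their CpG-denser end. Windows needed 5 CpGs and 10 calls in every library. EdgeR 4.0.16, with its quasi-likelihood F test, was fitted to methylated and unmethylated counts of 20317 windows in 8 groups (4 residual degrees of freedom, common dispersion 0.024), with Benjamini-Hochberg adjustment within each of 10 comparisons and a threshold of 0.05. Limma 3.58.1 was the other test, and the closing section gives the other alternatives. Per the labels N5 and N9 are the same lines at each stage, so a block by clone was among them. The deviations of N5 from N9 had correlations of 0.00325 to 0.0398 between stages, so the values do not themselves show this pairing. No label names separate cultures, so p-values measure the spread between the 2 clones.

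The rule for the members used symbols and no measured value. Like the lists, tests and alternatives, it was chosen with earlier results of these data known. Named were the C-type genes, the 2 highest and 2 lowest members of each cluster at t=0 in the clones, the 2 of lowest p in each cluster for day 25 against t=0, embryoid bodies against day 25 and clones against wild type at t=0, and members called where 5 or fewer were. Other genes were named after their values were seen.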

Additional observations from a re-analysis of the deposited data

Results flagged for a closer look

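For 4 genes the change in the clones differed from the change in the wild type by a test of the difference itself. Pcdhb18 changed by -41.4 points relative to the wild type between t=0 and day 25, and by 34.1 points between day 25 and embryoid bodies. Between day 25 and embryoid bodies, Pcdhb19 differed by 43.3 points, Pcdhgb4 by 23.2 points and Pcdhga1 by 19.2 points. The test called 1 of the 58 members to day 25, where 1.92% of all windows were called, and 4 to embryoid bodies, where 6.02% were. By limma, of these 5 differences only that of Pcdhb19 was called. At each of these genes the wild-type library at day 25 was the highest of the 4 wild-type stages, and it was also the library with the fewest calls. The 5 differences use that 1 library, and its part in them was not tested. Those to embryoid bodies also rest on wild-type embryoid bodies whose label gives another differentiation time and no doxycycline.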

How the results depend on the processing

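With the clones as a replicate block, 27 members were called for day 25 against t=0, 46 for embryoid bodies against day 25, 4 for embryoid bodies against t=0, 8 for clones against wild type at day 25, and 1 and 4 for the differences in change; the other counts were 0. Adding flow cell to the block gave 2 for clones against wild type at day 25 and 4 and 10 for the differences in change. With windows of 500 bp on either side, the counts were 17 for day 25 against t=0, 29 for embryoid bodies against day 25, 2 for clones against wild type at t=0, 7 at day 25 and 0 for the difference in change to day 25. By limma they were 2 for embryoid bodies against t=0, 7 for clones against wild type at day 25, and 0 and 1 for the differences in change. The denser end of each gene gave 2 for the difference in change to day 25, and CpGs with calls in all libraries gave 2 for clones against wild type at t=0. Leaving out 1 clone library gave 8 to 15 for day 25 against t=0, 0 to 1 for embryoid bodies against t=0, 4 to 7 for clones against wild type at day 25, 0 for the difference in change to day 25 and 0 to 5 for that to embryoid bodies. A minimum of 30 calls, or of 1 call, changed none of the 91 calls of single genes.

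The α level of the clones at t=0 was 16.6% within 500 bp, 16.4% on CpGs with calls in all libraries, and 24.6% both as a mean over genes and without the C-type genes, an alternative chosen after seeing the data. The change of α to day 25 was -6.04 points as a mean over genes, and its change to embryoid bodies 7.44 points within 500 bp, 7.60 on CpGs with calls in all libraries, 9.81 as a mean over genes and 9.14 without the C-type genes. Within 500 bp the β level at t=0 was 19.7% and the β change to embryoid bodies 12.7 points. The γ level at t=0 was 8.38% with the denser end, 6.69% within 500 bp, 12.7% on CpGs with calls in all libraries, 14.7% as a mean over genes and 14.4% without the C-type genes. The γ change to day 25 was -3.94 points with the denser end, -3.67 within 500 bp and -6.90 without the C-type genes, and that to embryoid bodies 4.69 within 500 bp. The direction of Pcdhb19 in embryoid bodies against t=0 turned within 500 bp (log2 odds -0.29, edgeR adjusted p = 0.805). Of 1070 values of single genes under an alternative, 847 kept direction and call, 222 lost the call and 1 turned. The cause of these shifts was not tested.

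With 2 clones and 1 wild-type library a stage, a coverage of a few calls per CpG and windows of 11 to 119 CpGs, a gene must differ by many points to be called, least so near 0%. A missed call does not show that levels were alike. No strand or genome sequence was used, so the first-exon ends of the β genes rest on the order of the genes alone.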
